A study of Mus musculus with 8 samples.

Results

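The colony-stimulating factors and their receptors were followed in RNA sequencing of mouse Gr-1+ cells, which carry the myeloid surface antigens Ly6G or Ly6C. The set holds 8 genes, of 15578 gene names in the table: the ligand genes Csf1, Csf2 and Csf3, and the receptor genes Csf1r, Csf3r, Csf2ra, Csf2rb and Csf2rb2. They were chosen by gene symbol, and all 8 were found, on 17 rows of the table. The cells came from C57BL/6 mice of 8 to 16 weeks and both sexes, sex-matched, each given 2 excisional back wounds of 8 mm diameter and killed on day 3 after wounding. The groups were wound cells of diabetic mice (Lepr -/-), wound cells of nondiabetic heterozygotes (Lepr +/-), marrow cells of diabetic mice and marrow cells of nondiabetic heterozygotes. All mice were wounded, so the marrow groups are not from unwounded animals, and the nondiabetic mice carry 1 disrupted copy of the leptin receptor gene Lepr. Wounds were taken with a 2 mm border of skin and dissociated with enzymes, and Gr-1+ cells were isolated with magnetic beads. Each library is a pool of 5 mice, with 2 libraries a group and 8 in all, so each p-value measures the spread between pools and not between mice. Values are FPKM, fragment counts scaled to transcript length and to the mapped fragments of the library.

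The colony-stimulating factors are secreted proteins that control how many myeloid cells are made, how long they live and what they become. Csf1 encodes M-CSF, the growth factor of monocytes and macrophages, Csf2 encodes GM-CSF, which acts on granulocytes and macrophages, and Csf3 encodes G-CSF, which drives neutrophil production and release from the marrow. Csf1r is a receptor tyrosine kinase, Csf3r is a single-chain cytokine receptor, and the GM-CSF receptor pairs its own alpha chain, Csf2ra, with the beta common chain, Csf2rb, which the IL-3 and IL-5 receptors share. Csf2rb2 is the mouse beta chain used by the IL-3 receptor alone.

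The ligand messages carry AUUUA motifs in their 3' untranslated regions, the element through which proteins such as tristetraprolin (Zfp36) shorten the life of cytokine messages. The stretch of 30 bases richest in this motif is shown for each ligand, 5' to 3', with AUUUA in capitals, as the feature of these messages that the AU-binding proteins described further on are known to read. The stretches were read from the mm9 assembly (NCBIM37) with GENCODE vM1 transcripts, at chr3:107544027-107544056 on the minus strand, chr11:54060831-54060860 on the minus strand and chr11:98564298-98564327 on the plus strand.
Csf1: uuuauauaaggucAUUUAaauaucuAUUUA
Csf2: uuuuuaaauAUUUAUUUAUUUAUUUAUUUA
Csf3: gauaguuuAUUUAucucuAUUUAauAUUUA
The search took the letters AUUUA on the sense strand of the untranslated region, overlaps included. Csf2 held 9 matches in 317 bases, a density reached by 0.128% of 19585 genes. Csf3 held 6 in 669 bases, a density reached by 2.06% of genes, and Csf1 held 4 in 2111 bases, a density reached by 33.8%. Csf1r held 3 matches and Csf3r held 1, while Csf2ra, Csf2rb and Csf2rb2 held 0. A match describes these letters and shows nothing about decay in these cells.

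Between 15036 and 16162 named rows of the table reached 1 FPKM in a library, and the total depth of the libraries is unknown. From the lowest values, 1 fragment was worth between 0.537 and 1 times its value in nondiabetic marrow pool 1, so the libraries differed in depth by less than 2-fold on this measure. Ly6g, the granulocyte gene behind the sorted antigen, averaged 12.6 FPKM in diabetic wound, 18.2 in nondiabetic wound, 568 in diabetic marrow and 854 in nondiabetic marrow. The libraries were also offset from each other: with the deposited FPKM the median difference over all gene names was -0.20 between diabetic wound and marrow and -0.40 between nondiabetic wound and marrow. After median-ratio scaling these medians were 0.05 and 0.06. Where that scaling changes a call of the 8 genes or moves a called difference of theirs by over 1.5 times, the scaled value is given beside it. Differences are on the log2(FPKM + 1) scale and understate the change of genes near 0 FPKM. They were tested with limma with a Benjamini-Hochberg threshold of 0.05 over all gene names, and a gene is said to rise or fall only past that threshold. In these bulk samples fewer cells of a type and less RNA per cell cannot be told apart.

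The ligand genes were higher in wound cells than in marrow cells, where Csf2 and Csf3 were near the floor, and the diabetic wound was above the nondiabetic wound for each of them. Csf1 (chr3:107543762-107563454, on the minus strand, as the table gives the locus) was measured at 89.0 and 86.8 FPKM in the diabetic wound pools and at 66.2 and 65.0 FPKM in the nondiabetic wound pools. In marrow it stood at 3.14 and 2.95 FPKM in diabetic pools and 3.72 and 3.78 FPKM in nondiabetic pools. No library of any group overlapped with that of another group. Csf1 in diabetic wound lay above 94.1% of the gene names tested, and in diabetic marrow above 35.6% of them.

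Csf1 was 28.9-fold higher in diabetic wound than in diabetic marrow (log2 difference 4.46, SE 0.0365, adjusted p = 1.79e-08) and 17.5-fold higher in nondiabetic wound than in nondiabetic marrow (3.81, SE 0.0365, adjusted p = 2.5e-08). In the wound it rose with diabetes, to 87.9 ± 1.57 FPKM in diabetic pools against 65.6 ± 0.885 FPKM in nondiabetic pools (SD, n = 2 each; log2 difference 0.42, SE 0.0365, adjusted p = 4.37e-04 by limma). In marrow it fell with diabetes, to 3.04 ± 0.133 FPKM against 3.75 ± 0.04 FPKM (-0.23, SE 0.0365, adjusted p = 0.00448 by limma). The marrow difference was -0.11 and did not pass after median-ratio scaling (adjusted p = 0.0819). It did not pass either when the marrow groups were fitted alone (adjusted p = 0.0592).

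Csf2 (chr11:54060784-54063164, minus strand) was the lowest of the 8 genes in every group. It was measured at 9.24 and 8.72 FPKM in diabetic wound pools and at 3.86 and 3.97 FPKM in nondiabetic wound pools. In marrow it was 0 and 0.0416 FPKM in diabetic pools and 0.0385 and 0 FPKM in nondiabetic pools. The wound groups did not overlap with each other or with marrow, and the marrow groups overlapped. The value of nondiabetic marrow pool 1 was taken as 1 fragment, an assumption that was not tested. On that scale, adjusted for the depth of each library, diabetic marrow had 0 and 2.01, nondiabetic marrow 1 and 0, and the wound pools 138 to 437. With a value of 0 in each marrow group, the marrow level is near the limit of detection and no fold over marrow is given.

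In the wound Csf2 rose 2.29-fold with diabetes (log2 difference 1.02, SE 0.0541, adjusted p = 8.55e-05 by limma). In marrow its difference was 0.00 (SE 0.0541, adjusted p = 0.995). Csf2 exceeded marrow by 3.29 in diabetic wound (SE 0.0541) and by 2.27 in nondiabetic wound (SE 0.0541) on the log2(FPKM + 1) scale, and by 6.25 and 5.09 with 0.1 in place of 1. It entered the test through its wound values alone, so it had to differ between wound and marrow. An antisense gene model, Gm12223, overlaps the locus, and whether the libraries keep strand is not stated.

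Csf3 (chr11:98561528-98564995, plus strand) had a larger difference between wound and marrow than the other ligands. The diabetic wound pools had 64.9 and 65.0 FPKM and the nondiabetic wound pools had 25.1 and 25.2 FPKM. The diabetic marrow pools had 0.0442 and 0.0278 FPKM and the nondiabetic marrow pools had 0.0414 and 0.0502 FPKM. The wound pools of each genotype lay close together and well apart from the other genotype, while the marrow groups overlapped.

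Csf3 rose 2.59-fold with diabetes in the wound (log2 difference 1.34, SE 0.0343, adjusted p = 1.34e-05 by limma) and differed by -0.01 in marrow (SE 0.0343, adjusted p = 0.803). It exceeded marrow by 5.99 in diabetic wound (SE 0.0343) and 4.64 in nondiabetic wound (SE 0.0343), and by 8.91 and 7.44 with 0.1 in place of 1. Like Csf2, it entered the test through its wound values. Both scalings kept Csf1, Csf2 and Csf3 higher in the diabetic wound, with differences after median-ratio scaling of 0.31 for Csf1, 0.95 for Csf2 and 1.23 for Csf3.

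Markers of other cell types were read in the same libraries. Over all names 30.5% were higher and 21.4% lower in diabetic than in nondiabetic wound, the shares beside which the counts stand. Of 8 keratinocyte markers tested, 8 were higher in diabetic than in nondiabetic wound, with a summed level of 652 to 672 FPKM in diabetic wound, 262 to 270 FPKM in nondiabetic wound, 8.50 to 9.88 FPKM in diabetic marrow and 7.79 to 8.43 FPKM in nondiabetic marrow. Of 8 endothelial markers 4 were higher and 0 lower in diabetic wound, with sums of 88.0 to 88.7 FPKM in diabetic wound, 50.1 to 51.7 FPKM in nondiabetic wound, 10.1 to 11.7 FPKM in diabetic marrow and 14.2 to 15.4 FPKM in nondiabetic marrow. Of 8 macrophage markers 5 were higher and 0 lower in diabetic wound. The 7 of them usable in each library summed to 341 FPKM in both diabetic wound pools and 278 to 288 FPKM in nondiabetic wound. In marrow these sums were 78.0 to 80.3 FPKM in diabetic pools and 51.0 to 51.6 FPKM in nondiabetic pools. After median-ratio scaling the counts in diabetic wound were 8 higher and 0 lower for keratinocyte markers and 4 and 1 for endothelial markers. For macrophage markers they were 5 and 1, where 3309 of 13927 names were higher and 3950 lower. The part of these cell types in the ligand levels was not tested.

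Of 9 fibroblast markers 3 were lower and 1 higher in diabetic wound, against 21.4% and 30.5% of all names. After median-ratio scaling 5 of the fibroblast markers were lower and 1 higher, where 3950 of 13927 names were lower and 3309 higher. The 8 of them usable in each library summed to 267 to 287 FPKM in diabetic wound and 391 to 395 FPKM in nondiabetic wound. In marrow these sums were 2.66 to 3.38 FPKM in diabetic pools and 4.67 to 10.1 FPKM in nondiabetic pools. Of 8 mast cell and basophil markers 4 were higher and 1 lower in diabetic wound, with sums of 230 to 234 FPKM in diabetic wound, 137 to 139 FPKM in nondiabetic wound, 150 to 152 FPKM in diabetic marrow and 106 to 111 FPKM in nondiabetic marrow. With median-ratio scaling 4 of the mast cell and basophil markers were higher in diabetic wound and 2 lower. No marker of these 5 lists was at 0 in both pools of a wound group, while Krt1 was at 0 in both marrow groups, Trp63 in nondiabetic marrow and Fap in diabetic marrow.

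**Figure D1:**
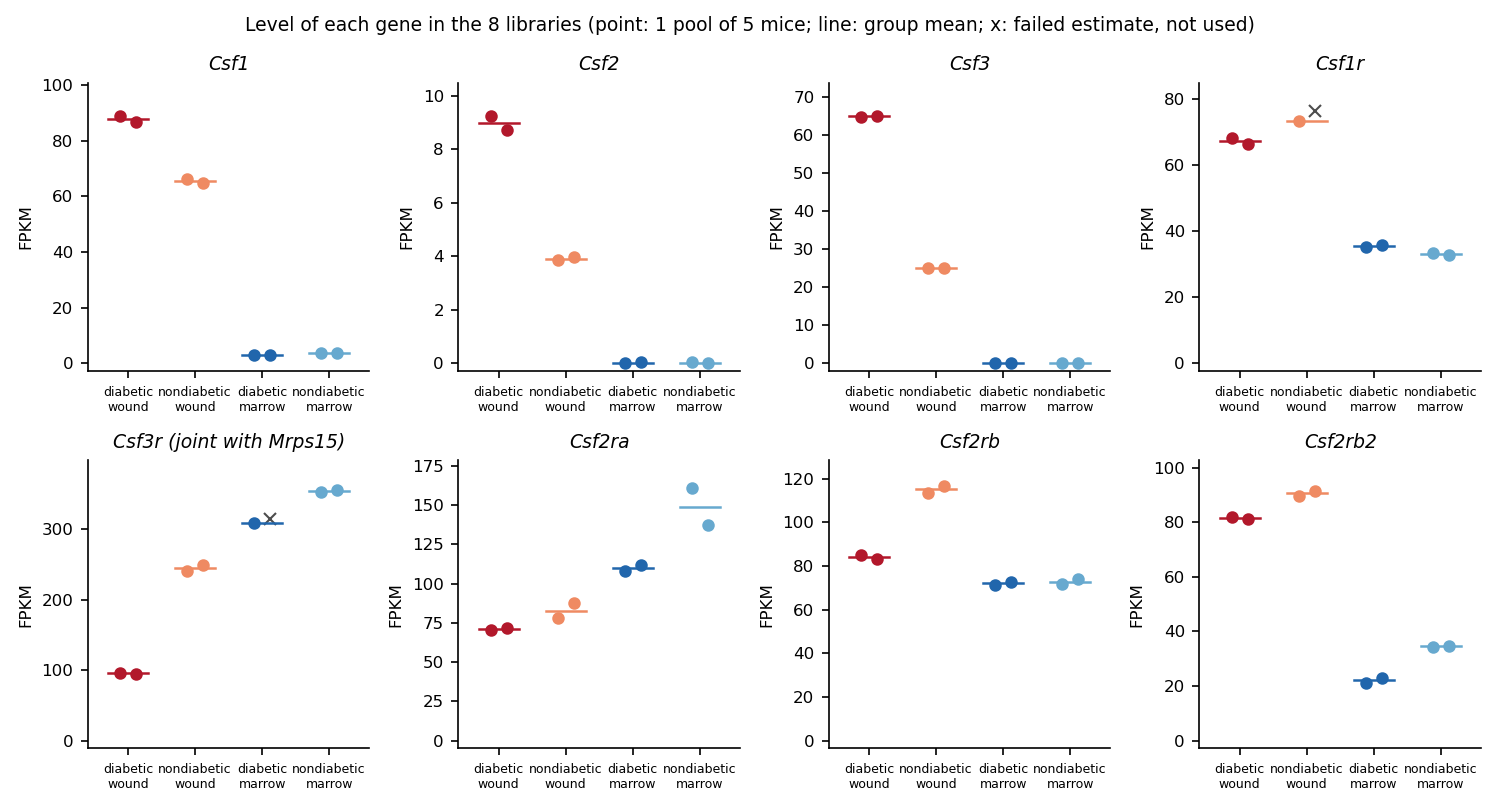
FPKM of each of the 8 genes in diabetic wound, nondiabetic wound, diabetic marrow and nondiabetic marrow; each point is 1 pool of 5 mice, each line is the mean of the usable pools, and a cross is a failed estimate that was not used. Csf1, Csf2 and Csf3 are highest in diabetic wound, with Csf2 and Csf3 near 0 and Csf1 at 2.95 to 3.78 FPKM in marrow, Csf3r runs the other way with 95.3 FPKM in diabetic wound and 354 FPKM in nondiabetic marrow, and Csf2ra is highest in nondiabetic marrow.

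The receptor genes were expressed in both tissues. Csf1r (chr18:61262150-61336332) had 68.2 and 66.5 FPKM in diabetic wound and 73.5 FPKM in nondiabetic wound pool 1. The estimate of nondiabetic wound pool 2 failed (listed at 76.3 FPKM) and was left out of the fit, so that group has 1 value, assumed to vary like the others. In marrow Csf1r had 35.0 and 35.8 FPKM in diabetic pools and 33.4 and 32.7 FPKM in nondiabetic pools. Each wound value lay above each marrow value.

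Csf1r was 1.90-fold higher in diabetic wound than in diabetic marrow (log2 difference 0.91, SE 0.0343, adjusted p = 8.92e-06 by limma) and 2.23-fold higher in nondiabetic wound than in nondiabetic marrow (1.13, SE 0.042, adjusted p = 7.99e-06), a difference of 1.70 after median-ratio scaling. With diabetes it differed by -0.12 in wound (SE 0.042, adjusted p = 0.0636) and by 0.10 in marrow (SE 0.0343, adjusted p = 0.0743), neither past the threshold. After median-ratio scaling both passed, at -0.25 in wound and 0.24 in marrow (adjusted p = 0.00713 and 0.00567 by limma). The locus spans the gene Hmgxb3 on the other strand.

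Csf3r shares its row with Mrps15, a mitochondrial ribosomal protein gene that follows it on the same strand (chr4:125700454-125733040), so its values are for the pair. The row had 96.3 and 94.3 FPKM in diabetic wound and 241 and 250 FPKM in nondiabetic wound. In marrow it had 309 FPKM in diabetic pool 1 and 352 and 356 FPKM in nondiabetic pools. The estimate of diabetic marrow pool 2 failed (listed at 315 FPKM) and was left out of the fit, leaving 1 value in that group. Nondiabetic marrow was highest, diabetic wound lowest, and no group overlapped with the next.

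The Csf3r row fell 2.57-fold with diabetes in the wound, to 95.3 ± 1.44 FPKM in diabetic pools against 245 ± 6.63 FPKM in nondiabetic pools (SD, n = 2 each; log2 difference -1.35, SE 0.0444, adjusted p = 6.59e-05 by limma). It was lower in diabetic wound than in diabetic marrow by 3.24-fold (-1.69, SE 0.0544, adjusted p = 4.93e-06). In nondiabetic mice wound was below marrow by 1.44-fold (-0.53, SE 0.0444, adjusted p = 1.99e-04), a difference that was 0.04 and did not pass after median-ratio scaling (adjusted p = 0.331). In the same libraries, of 12 neutrophil markers tested, 8 were lower and 1 higher in diabetic wound, against 21.4% and 30.5% of all names. The part of these markers in the Csf3r difference was not tested. The neutrophil sums, over the 8 markers usable in each library, were 392 FPKM in both diabetic wound pools, 581 to 633 FPKM in nondiabetic wound, 21745 to 21871 FPKM in diabetic marrow and 27304 to 28388 FPKM in nondiabetic marrow.

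In marrow the diabetic value of the Csf3r row was lower (log2 difference -0.20, SE 0.0544, adjusted p = 0.0412 by limma), a call that rests on few values. It did not pass without any 1 of the 4 wound libraries, diabetic marrow pool 2, nondiabetic marrow pool 1 or nondiabetic marrow pool 2 (differences -0.20 to -0.19, adjusted p = 0.052 to 0.102), nor after median-ratio scaling (-0.03, adjusted p = 0.699).

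Csf2ra, the GM-CSF receptor alpha chain (chr19:61298731-61308171, minus strand), was highest in nondiabetic marrow. It had 70.2 and 71.8 FPKM in diabetic wound, 77.9 and 87.4 FPKM in nondiabetic wound, 108 and 111 FPKM in diabetic marrow and 161 and 137 FPKM in nondiabetic marrow. The 4 groups kept apart, although the nondiabetic marrow pools spread more than the others. Csf2ra was lower in wound than in marrow by 0.62 in diabetic mice (log2 difference -0.62, SE 0.09, adjusted p = 9.29e-04 by limma) and 0.84 in nondiabetic mice (-0.84, SE 0.09, adjusted p = 2.08e-04). After median-ratio scaling these were -0.31 and -0.27, both past the threshold.

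In marrow Csf2ra fell with diabetes, to 110 ± 2.58 FPKM in diabetic pools against 149 ± 16.7 FPKM in nondiabetic pools (SD, n = 2 each; -0.43, SE 0.09, adjusted p = 0.0119 by limma). This call was lost after median-ratio scaling (-0.28, adjusted p = 0.0602) and without diabetic marrow pool 1 (-0.41, adjusted p = 0.0618). In the wound the difference of -0.21 did not pass (SE 0.09, adjusted p = 0.0968). It passed without nondiabetic marrow pool 1 or pool 2 (-0.21 each, adjusted p = 0.0459 and 0.0462) and after median-ratio scaling (-0.32, adjusted p = 0.0327). A minor row of the same name stood below 1 FPKM in each library.

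Csf2rb, the beta common chain (chr15:78156190-78184605, plus strand), was at like levels in both marrow groups and highest in nondiabetic wound. It had 85.2 and 83.0 FPKM in diabetic wound and 114 and 117 FPKM in nondiabetic wound. In marrow it had 71.3 and 72.8 FPKM in diabetic pools and 71.6 and 74.1 FPKM in nondiabetic pools. The wound groups stood apart from each other and from marrow, and the marrow groups overlapped.

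In the wound Csf2rb fell with diabetes, to 84.1 ± 1.52 FPKM in diabetic pools against 115 ± 2.15 FPKM in nondiabetic pools (SD, n = 2 each; log2 difference -0.45, SE 0.0365, adjusted p = 3.37e-04 by limma). It was 1.17-fold higher in diabetic wound than in diabetic marrow (0.22, SE 0.0365, adjusted p = 0.00171) and 1.58-fold higher in nondiabetic wound than in nondiabetic marrow (0.65, SE 0.0365, adjusted p = 9.55e-06). After median-ratio scaling these tissue differences were 0.53 and 1.22. In marrow Csf2rb differed by -0.02 with diabetes (SE 0.0365, adjusted p = 0.776), and by 0.13 after median-ratio scaling, past the threshold (adjusted p = 0.00865).

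Csf2rb and Csf2rb2 lie near each other on chromosome 15, on opposite strands, and are close copies, which bears on every value of this pair. Their coding sequences of 2691 and 2637 bases were identical at 95.7% of 2622 aligned bases. Their first 90 coding bases are shown from mm9 (each spans an intron, chr15:78165637-78166779 on the plus strand and chr15:78127531-78128659 on the minus strand), with the bases that differ in capitals.
Csf2rb: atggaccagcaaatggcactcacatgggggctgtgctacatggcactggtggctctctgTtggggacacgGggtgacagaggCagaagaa
Csf2rb2: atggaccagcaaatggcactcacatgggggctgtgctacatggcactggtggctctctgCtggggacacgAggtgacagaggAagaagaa
There were 3 differing bases in this window. The longest identical run covers coding bases 2083 to 2324 of both genes and is 242 bases long (chr15:78179007-78179248, plus strand, and chr15:78115060-78115301, minus strand). It is shown because a read from within it matches both genes.
Csf2rb and Csf2rb2, identical run: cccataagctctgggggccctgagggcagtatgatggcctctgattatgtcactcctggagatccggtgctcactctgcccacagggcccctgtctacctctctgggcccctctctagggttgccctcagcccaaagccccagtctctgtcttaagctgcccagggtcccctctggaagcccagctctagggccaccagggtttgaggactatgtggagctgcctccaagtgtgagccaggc
Of the 4563 windows of 50 bases in the Csf2rb2 transcript, 18.9% also occur in the Csf2rb transcript. How the authors' counting shared such reads is not given in the sources used here, so the split between the genes is uncertain.

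Csf2rb2 was named on 8 rows with the same listed span (chr15:78112935-78138702), and the highest row represents it in the tests. That row had 81.8 and 81.3 FPKM in diabetic wound and 89.7 and 91.6 FPKM in nondiabetic wound. In marrow it had 21.3 and 23.0 FPKM in diabetic pools and 34.4 and 34.6 FPKM in nondiabetic pools. Wound was above marrow, and within each tissue the diabetic pools were below the nondiabetic pools without overlap.

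The highest Csf2rb2 row was 3.68-fold higher in diabetic wound than in diabetic marrow (log2 difference 1.84, SE 0.0428, adjusted p = 2.55e-07 by limma) and 2.63-fold higher in nondiabetic wound than in nondiabetic marrow (1.37, SE 0.0428, adjusted p = 7.85e-07). In marrow it fell by 0.62 with diabetes (SE 0.0428, adjusted p = 2.98e-04). In the wound it fell by 0.15 with diabetes (SE 0.0428, adjusted p = 0.0295), a difference of -0.26 after median-ratio scaling. That small wound difference did not pass without diabetic wound pool 1 (-0.16, adjusted p = 0.0981), diabetic wound pool 2 (-0.15, 0.11), nondiabetic wound pool 1 (-0.17, 0.0706) or nondiabetic wound pool 2 (-0.14, 0.113).

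The 7 other Csf2rb2 rows differed from the highest row in the wound. Their FPKM summed to 72.7 and 74.5 in diabetic wound, 233 and 238 in nondiabetic wound, 29.0 and 34.7 in diabetic marrow and 30.5 and 29.2 in nondiabetic marrow. Each row is scaled to its own length, so a sum over rows is not known to be a level of the gene. Nondiabetic wound stood far above the other groups, and the marrow groups overlapped. Fitted row by row, the 7 rows had a median log2 difference with diabetes of -1.74 in the wound, with a range of -2.43 to -0.22. In marrow their median was 0.25, with a range of -1.71 to 0.59. The 7 rows share their listed span and their libraries, so they are not separate observations. With all 8 rows summed, wound exceeded marrow by 1.51 in diabetic mice and by 2.32 in nondiabetic mice, the reverse of the order on the highest row. In the same sum the diabetes difference in the wound was -1.07 (adjusted p = 1.52e-04 by limma) and that in marrow was -0.25 (adjusted p = 0.0289).

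**Figure D2:**
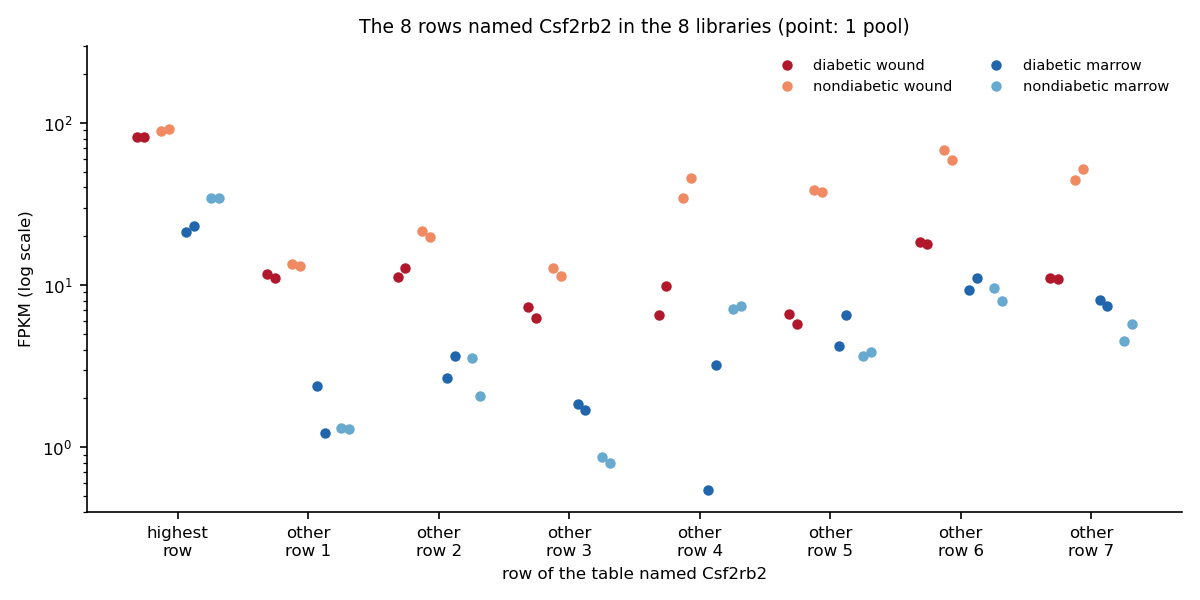
FPKM on a log scale of the 8 rows named Csf2rb2, each point 1 pool, coloured by group. The highest row has 81.3 to 81.8 FPKM in diabetic and 89.7 to 91.6 FPKM in nondiabetic wound, whereas the nondiabetic wound stands well above the diabetic wound in most of the 7 other rows.

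In the wound 3 of the 8 genes were higher in diabetic mice (Csf1, Csf2 and Csf3), where 30.5% of all gene names were higher, and 3 were lower (Csf3r, Csf2rb and Csf2rb2), where 21.4% were lower. In marrow 0 were higher, where 13.5% of names were higher, and 4 were lower (Csf1, Csf3r, Csf2ra and Csf2rb2), where 31.3% were lower. After median-ratio scaling that balance turned to 2 higher (Csf1r and Csf2rb) and 1 lower (Csf2rb2). Of 13905 names 2955 were then higher in marrow and 2578 lower. With quantile normalization the marrow balance was 1 higher and 3 lower, where 2360 names were higher and 2824 lower. In the wound median-ratio scaling gave 3 higher and 5 lower, where 3309 of 13927 names were higher and 3950 lower. Between diabetic wound and diabetic marrow 6 were higher and 2 lower, where 36.6% of names were higher and 47.8% lower. Between nondiabetic wound and nondiabetic marrow the counts were again 6 and 2, where 31.8% of names were higher and 53.6% lower. Csf3r and Csf2ra were the 2 lower genes in both tissue comparisons, of which Csf3r in nondiabetic mice was 0.04 after median-ratio scaling, and Csf2 and Csf3 had to be among the higher ones. After median-ratio scaling the share of higher names among those called was 51.7% between diabetic wound and marrow and 52.0% between nondiabetic wound and marrow, against 43.3% and 37.2% without it. The same shares were 45.6% for diabetes in wound, 53.4% for diabetes in marrow and 45.5% for the difference of the effects, against 58.8%, 30.1% and 66.2% without it.

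**Figure D3:**
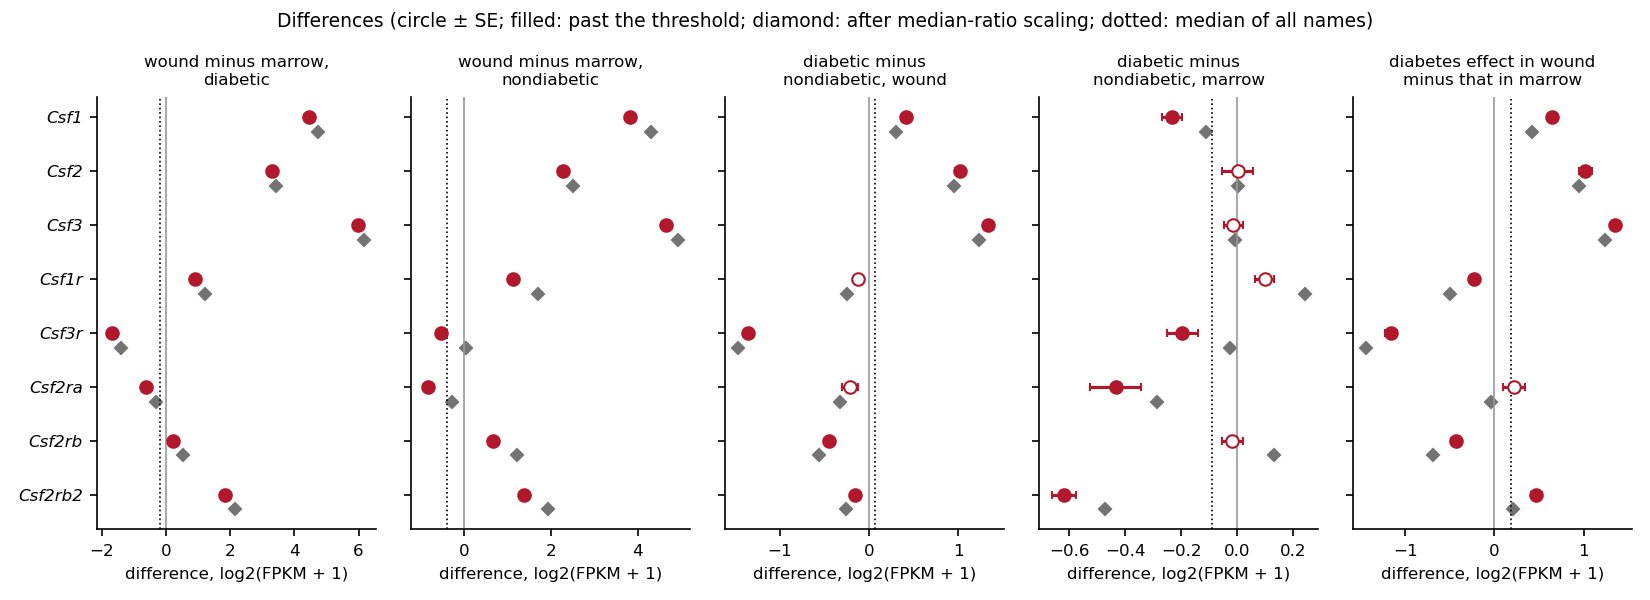
Log2 differences of the 8 genes in the 5 comparisons, circles with the standard error of the fit, filled where past the threshold; diamonds are the values after median-ratio scaling and the dotted line is the median of all gene names. The ligands lie to the right in the wound and tissue panels, and Csf3r lies furthest left in the wound panel at -1.35.

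The difference between the diabetes effects in wound and marrow passed the threshold for most of the set. For the difference of the effects, wound minus marrow, 4 of 8 genes were positive past the threshold, where 37.3% of names were, and 3 were negative, where 19.1% were. Csf3 had the largest positive value (1.35, SE 0.0485, adjusted p = 5.26e-05 by limma), followed by Csf2 (1.02, SE 0.0765, adjusted p = 3.11e-04) and Csf1 (0.65, SE 0.0516, adjusted p = 3.68e-04). Csf3r had the largest negative value (-1.16, SE 0.0702, adjusted p = 3.84e-04) and Csf2rb the next (-0.43, SE 0.0517, adjusted p = 0.0013). These 5 kept their sign and their call after median-ratio scaling, at 1.24, 0.94, 0.42, -1.44 and -0.69 in the same order. Csf2 and Csf3 were near 0 FPKM in marrow, so their marrow effects could only be small (0.00 and -0.01). The values of Csf2 and Csf3 therefore restate their wound effects of 1.02 and 1.34 and do not compare 2 measured effects.

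The other 3 receptor genes were less settled. Csf1r gave -0.22 (SE 0.0543, adjusted p = 0.0225 by limma) and -0.49 after median-ratio scaling (adjusted p = 0.00193). The unscaled call was lost without diabetic wound pool 1 (-0.24, adjusted p = 0.0505), diabetic wound pool 2 (-0.21, 0.0726), diabetic marrow pool 1 (-0.24, 0.051), diabetic marrow pool 2 (-0.21, 0.0687) or nondiabetic marrow pool 2 (-0.21, 0.0545). Csf2ra gave 0.22 and did not pass (SE 0.127, adjusted p = 0.19). It passed without nondiabetic marrow pool 2 (0.33, adjusted p = 0.0474) and was -0.04 after median-ratio scaling. Csf2rb2 gave 0.47 on its highest row (SE 0.0605, adjusted p = 0.0017), 0.21 after median-ratio scaling (adjusted p = 0.0107) and -0.81 with its 8 rows summed (adjusted p = 0.00128).

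FPKM are per length, so levels can be ordered between the genes. With Csf2rb2 taken from its highest row, Csf3r, with Mrps15, was the highest of the 8 in each group. The 8 rows of Csf2rb2 summed to 154 and 156 FPKM in diabetic wound and 323 and 329 FPKM in nondiabetic wound, more than the Csf3r row in both. Each row is scaled to its own length, and whether the rows are forms or pieces of the gene is not known. The sum is therefore not a known level of the gene, and the order of Csf2rb2 and Csf3r in the wound is not settled. In diabetic wound the joint Csf3r row, at 95.3 FPKM, was followed by Csf1 at 87.9 FPKM, Csf2rb at 84.1, Csf2rb2 at 81.5, Csf2ra at 71.0, Csf1r at 67.3 and Csf3 at 65.0, with Csf2 last. The share of Mrps15 in that row is not known, so the place of Csf3r itself in this order is not settled. In nondiabetic marrow Csf3r at 354 FPKM was followed by Csf2ra at 149, Csf2rb at 72.9, Csf2rb2 at 34.5 and Csf1r at 33.0, with the 3 ligands at 3.75 FPKM or less. Apart from Csf2, at 8.98 FPKM in diabetic wound, ligand and receptor messages were at like levels in diabetic wound, and they were far apart in marrow.

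The genes around the receptors were read as 6 lists. Of 18 genes of receptor-proximal signalling tested, 16 fell and 1 rose with diabetes in the wound, with a median of -0.37. Over all names the median was 0.07, and 21.4% fell and 30.5% rose. After median-ratio scaling 16 fell and 1 rose too, where 3950 of 13927 names fell and 3309 rose. Stat5a, a transcription factor that these receptors switch on, averaged 5.62 FPKM in diabetic wound and 10.9 in nondiabetic wound (-0.85, adjusted p = 4.74e-05 by limma). The Src-family kinase gene Fgr changed by -0.77, at 19.7 FPKM in diabetic and 34.3 FPKM in nondiabetic wound. Stat3, which acts downstream of the G-CSF receptor, changed by -0.51, at 52.3 FPKM in diabetic and 74.7 FPKM in nondiabetic wound.

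In marrow 6 of these 18 signalling genes rose and 3 fell with diabetes, with a median of 0.00 against -0.09 over all names, where 13.5% rose and 31.3% fell. After median-ratio scaling 10 rose and 2 fell, where 2955 of 13905 names rose and 2578 fell. With that scaling Fes, Grb2, Lyn, Pik3r1 and Plcg2 had the other sign. Fes is read from a joint row with Furin, so its values and its place in the counts of this list are for the pair. Shc1, an adaptor of growth factor receptors, had the smallest p in marrow and fell by 0.49, while Gab2, another adaptor, rose by 0.69. The wound change differed from the marrow change for 17 of the 18 genes, with 15 negative and 2 positive, against 19.1% and 37.3% of all names. Between diabetic wound and marrow 15 of the 18 were lower and 2 higher, against 47.8% and 36.6% of all names, among them Fgr, Stat5b and Pik3cd at -2.34, -2.57 and -3.20.

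Of the genes of survival and growth downstream of the receptors, most were higher in wound than in marrow. In nondiabetic mice 10 of 11 tested were higher in wound and 1 lower, where 31.8% and 53.6% of all names were. In diabetic mice 7 were higher and 3 lower, where 36.6% and 47.8% of all names were. Pim1, a kinase gene induced by STAT5, averaged 260 FPKM in diabetic wound, 414 in nondiabetic wound, 36.9 in diabetic marrow and 30.6 in nondiabetic marrow. In diabetic mice it was lower in the wound (-0.67, SE 0.0306, adjusted p = 5.62e-05 by limma) and higher in marrow (0.26). Bcl2l1, which encodes the survival protein Bcl-xL, fell by 0.49 in the wound, at 20.8 FPKM in diabetic and 29.6 FPKM in nondiabetic pools. With diabetes 6 of the 11 fell and 2 rose in the wound (median -0.17), against 21.4% and 30.5% of all names. In marrow 5 rose and 2 fell (median 0.06), against 13.5% and 31.3% of all names. After median-ratio scaling 5 rose and 0 fell in marrow, where 2955 of 13905 names rose and 2578 fell.

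The brakes on receptor signalling were mixed. In the wound 4 of 12 rose and 5 fell with diabetes, with a median of -0.10, where 30.5% of all names rose and 21.4% fell. After median-ratio scaling 2 rose and 5 fell, where 3309 of 13927 names rose and 3950 fell. Cish, a STAT5-induced member of the suppressor of cytokine signalling family, fell by 0.55 in the wound and by 0.83 in marrow, with means of 19.7 FPKM in diabetic wound, 29.3 in nondiabetic wound, 3.00 in diabetic marrow and 6.10 in nondiabetic marrow. Socs3, the brake on G-CSF receptor signalling, was at 179 and 209 FPKM in diabetic and nondiabetic wound, against 20.6 and 12.5 FPKM in diabetic and nondiabetic marrow. It exceeded marrow by 3.06 in diabetic mice and 3.96 in nondiabetic mice. Adam17, the protease that sheds the M-CSF receptor from the cell surface, rose by 0.19 in the wound with diabetes, at 25.0 FPKM in diabetic and 21.7 FPKM in nondiabetic pools.

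Transcription factors of the receptor genes gave 3 higher and 0 lower of 7 tested with diabetes in the wound, with a median of 0.38. Of all names 30.5% were higher and 21.4% lower. After median-ratio scaling 3 factors were higher and 2 lower, where 3309 of 13927 names were higher and 3950 lower. Cebpa, a factor of granulocyte and monocyte development that acts on Csf3r, averaged 20.8 FPKM in diabetic wound and 11.1 in nondiabetic wound (0.85, adjusted p = 2.73e-04 by limma) and 7.24 in diabetic marrow and 12.0 in nondiabetic marrow (-0.65). Cebpe, which is needed for late granulocyte maturation, was lower in wound than in marrow by 4.36 in diabetic and 5.48 in nondiabetic mice.

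Among proteins that bind AU-rich messages such as those of the ligands, 3 of 9 rose and 2 fell with diabetes in the wound, with a median of 0.05, shares near the 30.5% and 21.4% of all names. Zfp36 averaged 149 FPKM in diabetic wound, 335 in nondiabetic wound, 1012 in diabetic marrow and 787 in nondiabetic marrow. In the wound it was lower in diabetic mice (-1.15, SE 0.145, adjusted p = 0.0016 by limma), and it was lower in wound than marrow by 2.75 in diabetic and 1.24 in nondiabetic mice. Hnrnpd, which encodes the AU-binding protein AUF1, rose by 0.43 in the wound, and Zc3h12a, the RNase regnase-1, had 53.6 FPKM in diabetic wound, 54.4 in nondiabetic wound, 3.07 in diabetic marrow and 2.73 in nondiabetic marrow. The levels of these messages do not show how active the proteins were.

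Of 9 related ligands and receptors tested, 5 fell and 1 rose with diabetes in the wound, with a median of -0.33, where 21.4% of all names fell and 30.5% rose. The 1 that rose is a joint row of Flt3l and the ribosomal protein gene Rpl13a, so its values are for the pair. That row had 83.2 FPKM in diabetic and 65.8 FPKM in nondiabetic wound. Il5ra, among those that fell, was near the floor, at 0.135 FPKM in diabetic and 0.467 FPKM in nondiabetic wound. Flt3, a receptor of progenitors and dendritic cells, averaged 2.38 FPKM in diabetic wound and 5.56 in nondiabetic wound (-0.96, adjusted p = 2.22e-04 by limma). The 5 dendritic cell markers tested were also lower in diabetic wound, with sums over the 6 in the table of 39.8 to 40.4 FPKM in diabetic wound and 119 to 125 FPKM in nondiabetic wound, and their part was not tested. Il34, the second ligand of the M-CSF receptor, stood at 0.782 FPKM in diabetic wound and 1.48 in nondiabetic wound, far below Csf1, and changed by -0.48. Kit, the stem cell factor receptor, changed by -0.54, at 5.53 FPKM in diabetic and 8.47 FPKM in nondiabetic wound.

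**Figure D4:**
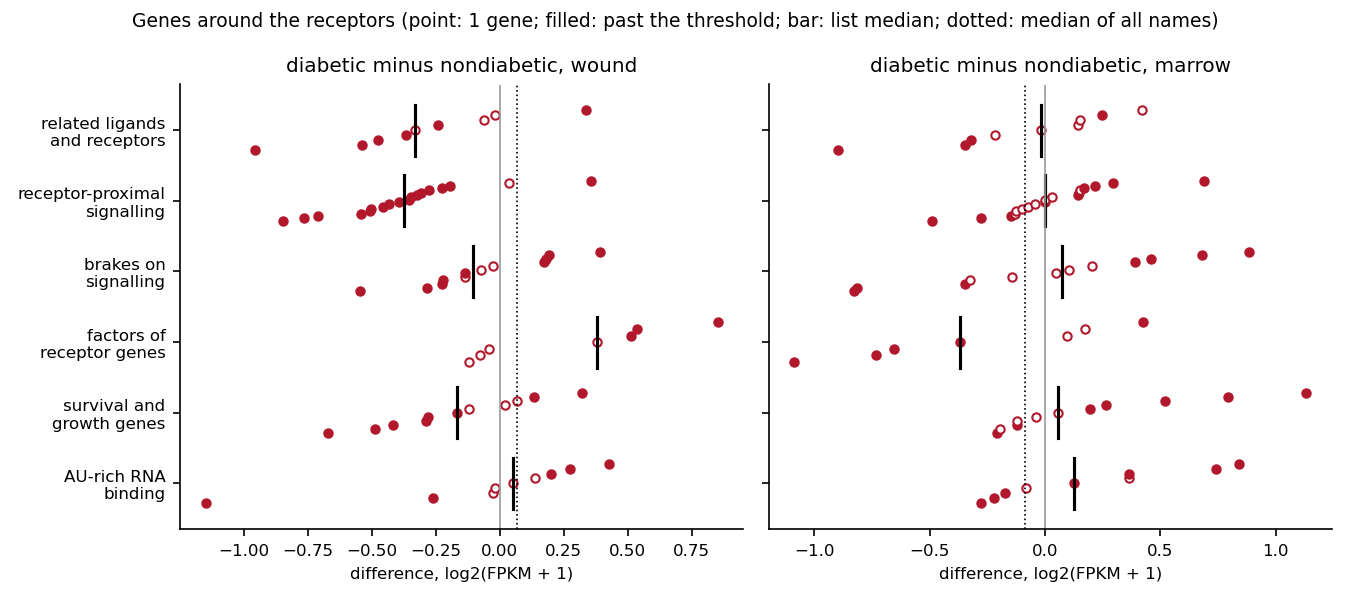
Log2 differences with diabetes in wound (left) and marrow (right) for the genes of 6 lists around the receptors; each point is 1 gene, filled where past the threshold, the bar is the list median and the dotted line the median of all names. Of 18 receptor-proximal signalling genes, 16 sit left of 0 past the threshold in the wound and 1 right of it, and in marrow they lie on both sides of 0.

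The gene names whose profile over the 8 libraries was most like each ligand were found by the root mean square distance of centred log2(FPKM + 1) values among 10102 names. For Csf1 they were Col4a1, a basement membrane collagen chain, at a distance of 0.06, Car13 and Tubb6. Col4a1 had 20.1 and 19.5 FPKM in diabetic wound. In diabetic marrow it had 0.0569 and 0.0279 FPKM, where Csf1 had 3.14 and 2.95 FPKM. The added 1 FPKM shrinks ratios near 0, so a small distance does not mean a like fold change. For Csf2 they included Sox7 at 0.07 and Ecscr. For Csf3 they were Lgals7 at 0.10, Cma1 and Dusp4, of which Lgals7 is on the keratinocyte marker list and Cma1 on the mast cell and basophil list. For the receptors the nearest were Tapbp for Csf2ra (0.06), Cdc27 for Csf2rb (0.02) and the joint name Gbp1,Gbp2 for Csf2rb2 (0.09). The 8 points of each profile fall in 4 groups and share their libraries, so these distances describe group patterns. Csf1r and Csf3r lacked a value in 1 library each and were not searched.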

How the data were processed

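RNA was sequenced from 8 libraries of mouse Gr-1+ cells, 2 pools of 5 mice in each of 4 groups. The authors deposited 1 table of FPKM for 39330 loci with a status for each estimate, made with TopHat and Cufflinks on mm9 per the submitters' processing notes, with versions not given in the sources used here. Total depth is unknown, and strandedness is not stated. Loci are quoted as the table gives them, and whether starts count from 0 or 1 is not stated.

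Each gene name was represented by its row with the highest mean, estimates with another status than OK were set missing, and names with at least 1 FPKM in at least 2 libraries were tested. All 8 libraries entered 1 fit of log2(FPKM + 1) in limma 3.58.1 (R 4.3.3, trend, not robust) with 4 group means and 4 residual degrees of freedom. Tests were two-sided, with Benjamini-Hochberg adjustment over all names of a comparison (13886 to 13927) and a threshold of 0.05. The 5 comparisons were wound against marrow in each genotype, diabetes in each tissue, and the difference of the diabetes effects. The pipeline was tested on simulated data.

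Genes were named by rule: the 8 genes, the 3 nearest profiles of each one with values in all libraries, and up to 4 genes of each list with the smallest p in a comparison; a few genes this rule takes are not reported here. The genes, the lists and the tests were chosen with earlier results of these data known. Sequences came from the mm9 assembly and GENCODE vM1. Figures were drawn with matplotlib 3.10.9.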

Additional observations from a re-analysis of the deposited data

Results flagged for a closer look

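For 7 of the 8 genes the effect of diabetes differed between wound and marrow, by a test of the difference itself in limma. On the log2(FPKM + 1) scale the effect in wound minus that in marrow was 0.65 for Csf1, 1.02 for Csf2 and 1.35 for Csf3. It was -0.22 for Csf1r, -1.16 for the joint row of Csf3r and Mrps15, -0.43 for Csf2rb and 0.47 for the highest row of Csf2rb2. For Csf2 and Csf3 the marrow effect is that of genes near the limit of detection, so their values restate the wound effect. The Csf1r value lost its call in 5 of the fits that left out 1 library and with a replicate block, and the Csf2rb2 value had the other sign when its rows were summed. Of all gene names, 37.3% were positive and 19.1% negative in this test.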

How the results depend on the processing

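With only FPKM, counting error cannot be given, and Csf2 and Csf3 in marrow are near the limit of detection. The counts of genes called, over all names and in the set, stayed within 1.5 times of the reported ones in each setting run, other than the marrow diabetes count of the set, which was 2 in place of 4 when the marrow groups were fitted alone and 2 to 3 when 1 library was left out. Median-ratio scaling reversed the nondiabetic wound difference from marrow of Csf3r (0.040), the marrow diabetes difference of Csf2rb (0.13) and the difference of the diabetes effects of Csf2ra (-0.039). Quantile normalization reversed the marrow diabetes differences of Csf2rb (0.065) and Csf3 (0.0085). Summing the rows reversed the difference of the diabetes effects of Csf2rb2 (-0.81). Leaving out 1 library reversed the marrow diabetes difference of Csf2 (-0.027 without diabetic marrow pool 2 and -0.025 without nondiabetic marrow pool 2, within a range of -0.027 to 0.031) and of Csf2rb (0.0087 without nondiabetic marrow pool 2, within a range of -0.041 to 0.0087). Apart from the scalings, which change the offset between libraries, and the row sum, which adds rows of another pattern, the cause was not tested. Of 840 differences recomputed, 797 kept direction and side of the threshold, 26 lost the call, 8 gained it and 9 reversed. Some settings, such as the fit without trend or without a library outside the comparison, can change the p-value but not the difference. The 797 are therefore not a measure of how stable the differences are. Csf1r and Csf3r had no value where names with a failed estimate were dropped or their group's lone usable library was left out, and the difference of the diabetes effects has no fit with fewer groups.

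The labels number the pools without saying that a number marks the same mice. Deviations of same-numbered pools correlated at -0.176 to 0.22 across the 6 pairs of groups, so the numbers were not taken to pair the libraries. With a replicate block for pool number the set counted 8, 8, 6, 3 and 6 calls in the 5 comparisons, against 8, 8, 6, 4 and 7 without it; the marrow diabetes call of Csf3r (adjusted p = 0.0881 by limma) and the difference of the effects of Csf1r (0.0505, and 0.116 with the block within genotype) were not past the threshold. With the block within genotype and the nondiabetic wound pools crossed, a setting added after seeing the data, the tissue comparisons counted 8 and 8 calls and the difference of the effects 6.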
